A study of Mus musculus with 4 samples.

Results

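The 10 genes described here are immediate-early genes of the EGR, FOS, JUN and IER families: Egr1, Egr2, Egr3, Fos, Fosl1, Fosl2, Jun, Junb, Ier2 and Ier3. They were chosen by gene name, with their values in the comparison of control and Hnrnpk siRNA already known, and make up 10 of the 22138 genes in the table. Their levels and changes are therefore given as a description, with no test. RNA came from mouse embryonic stem cells of the TT2 line, labelled female and C57BL/6xCBA, which were kept feeder-free in medium with serum and the cytokine LIF. Cells received control siRNA (n = 2) or siRNA against Hnrnpk (n = 2), at 100 nM and again at 50 nM 24 hours later, and were harvested about 72 hours after the second transfection. Cells of both groups thus went through both transfections, and no untransfected cells were measured here. The sources used here do not give the sequence or number of siRNAs. The labels call the RNA both poly(A)-selected and depleted of ribosomal RNA. The series text calls the libraries biological replicates without saying whether they were separate cultures, so the spread between them may be technical.

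Immediate-early genes are transcribed within minutes of a signal such as a growth factor, without need for new protein synthesis. Signalling through the kinase ERK activates ETS factors of the ELK group, which act with serum response factor (SRF) on their promoters, and CREB family factors act at cyclic AMP response elements. Many of the mRNAs are short-lived because of AU-rich elements in the 3′ untranslated region. EGR proteins are zinc finger factors that bind GC-rich DNA, and FOS and JUN proteins pair through leucine zippers to form AP-1. In embryonic stem cells, Egr1 is known as a target of FGF and ERK signalling. Ier2 encodes a nuclear protein, and Ier3 a stress-inducible protein known for roles in cell survival rather than as a transcription factor, so the heading of transcription factors does not cover all 10 genes.

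The 10 genes were compact. In GENCODE M21, on GRCm38, each had 1 to 4 exons in its longest protein-coding transcript, against a median of 9 exons over 12096 protein-coding genes tested, of which 21.3% had 4 or fewer. Genomic spans ran from 1240 bases (Ier3) to 22042 bases (Fosl2), with a median of 4698.5 bases against 23454.5 bases over those genes. GC content of the transcripts was 51.3% to 62.6%, above the median of 50.7% in all 10. The pentamer ATTTA, the core of AU-rich elements, stood in the 3′ untranslated region of 9 of the 10, all but Ier2. Of 12069 protein-coding genes with such a region annotated, 68.1% held it. Fosl2 had 8 copies, Egr3 had 7 and Ier3 had 5, and the median density was 2.57 per kilobase against 1.25 over all genes. These are counts of letters and not measurements of mRNA stability.

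Promoter sequences were found for 6 of the 10 genes in the RefSeq table for GRCm38.p6. Those shown are the 250 bases before the annotated start of Fos and Jun, which stood higher after Hnrnpk siRNA, and of Junb and Ier3, which stood lower. The windows are chr12:85473640-85473889 on the plus strand for Fos, chr4:95052223-95052472 on the minus strand for Jun, chr8:84978749-84978998 on the minus strand for Junb and chr17:35821463-35821712 on the plus strand for Ier3. Capitals mark matches, on either strand, to TGACG (the core of a cyclic AMP response element), TGACATCA (an AP-1-like element), TGANTCA (AP-1), the CArG box (bound by SRF), TATAA (a core promoter element), CCAAT (bound by NF-Y) and GCGNGGGCG (bound by EGR proteins).
Fos: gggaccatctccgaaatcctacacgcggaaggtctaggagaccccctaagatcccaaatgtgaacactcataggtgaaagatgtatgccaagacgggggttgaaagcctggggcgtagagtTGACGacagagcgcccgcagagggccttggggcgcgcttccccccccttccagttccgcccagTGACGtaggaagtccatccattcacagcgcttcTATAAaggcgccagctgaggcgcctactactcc
Jun: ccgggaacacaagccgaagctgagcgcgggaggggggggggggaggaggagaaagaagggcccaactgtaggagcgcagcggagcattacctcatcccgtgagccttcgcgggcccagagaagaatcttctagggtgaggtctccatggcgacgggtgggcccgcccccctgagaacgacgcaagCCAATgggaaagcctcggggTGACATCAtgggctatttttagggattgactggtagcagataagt
Junb: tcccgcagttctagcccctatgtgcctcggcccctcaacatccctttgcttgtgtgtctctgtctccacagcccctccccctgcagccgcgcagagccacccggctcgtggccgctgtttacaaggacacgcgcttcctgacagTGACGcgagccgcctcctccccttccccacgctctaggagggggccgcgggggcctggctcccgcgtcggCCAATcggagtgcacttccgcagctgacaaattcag
Ier3: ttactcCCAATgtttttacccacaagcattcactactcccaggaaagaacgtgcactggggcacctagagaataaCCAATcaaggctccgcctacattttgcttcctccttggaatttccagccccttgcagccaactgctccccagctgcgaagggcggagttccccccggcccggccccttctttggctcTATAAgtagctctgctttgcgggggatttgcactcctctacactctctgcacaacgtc

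Fos held TGACG at 129 and 66 bases before the start and TATAA at 33. Jun held TGACATCA at 45 bases before the start and CCAAT at 65. Junb held TGACG at 106 and CCAAT at 36, and Ier3 held TATAA at 58 and CCAAT at 244 and 175. TGACG was therefore found in 1 gene that stood higher and 1 that stood lower, while CCAAT was found in 1 that stood higher and 2 that stood lower. Over 32536 windows of the same length, 17.9% held TGACG, 2.84% TGACATCA, 6.73% TGANTCA, 1.48% a CArG box, 22.7% TATAA, 33.8% CCAAT and 4.74% GCGNGGGCG. None of the 4 windows shown held a CArG box, TGANTCA or GCGNGGGCG, and bases further from the start were not searched. Among the other windows, 4 of 5 for Egr2 held a CArG box, and that of Fosl2 held GCGNGGGCG at 79. The Egr2 windows that begin at 67537619, 67537620 and 67537680 overlap, and their CArG box is the same match. A match is a description of these letters and not a measured binding site.

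Levels are given in RPKM, reads scaled for gene length and for the mapped reads of the library, so that genes of different length can be set side by side. The libraries summed to between 359659 and 390467 RPKM, and the steps between low values put the depth of the others at 0.882 to 0.982 of control replicate 1. Hnrnpk itself went from 231 ± 6.69 to 69.2 ± 1.78 RPKM (SD, n = 2 per group), in the direction of the labels. All 6 embryonic stem cell markers were detected in every library. Of these markers, 2 were called higher and 1 lower after Hnrnpk siRNA, beside 32.2% and 35.0% of all genes tested. Led by Dppa5a, the 6 markers had summed levels of 2568 to 2685 RPKM in the control group and 3544 to 3883 RPKM after Hnrnpk siRNA. Changes are differences of log2(RPKM + 0.5), which understate the change of low genes, with the standard error (SE) from limma's fit over the 12486 genes whose mean reached 0.5 RPKM. Of the 10 genes, 8 passed that minimum and Egr2 and Egr3 did not.

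After control siRNA the levels spanned more than 3 orders of magnitude. Ier2 was the most abundant at 114 ± 9.60 RPKM, followed by Egr1 at 22.4 ± 2.57, Junb at 16.1 ± 1.50 and Ier3 at 8.29 ± 1.81 RPKM (SD, n = 2 per group). Fosl1 (2.01 ± 0.214) and Jun (1.92 ± 0.132) came next and overlapped between libraries, so their order was not resolved. Fos (0.931 ± 0.188), Fosl2 (0.672 ± 0.109), Egr2 (0.179 ± 0.00185) and Egr3 (0.0648 ± 0.0409 RPKM) closed the order (SD, n = 2 per group). Apart from Fosl1 and Jun, no neighbours in this order overlapped, though Fos and Fosl2 were close, at 0.798 RPKM in the lower Fos library and 0.749 RPKM in the higher Fosl2 library.

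The order was different after Hnrnpk siRNA, where Ier2 still led at 113 ± 4.35 RPKM and Junb was second at 11.4 ± 1.10 RPKM. Jun (4.31 ± 0.193) now overlapped Egr1 (4.28 ± 0.0482), and Ier3 (3.94 ± 0.0820), Fosl1 (2.99 ± 0.0979) and Fos (2.20 ± 0.0265 RPKM) followed without overlap between neighbours (SD, n = 2 per group). Egr1, above 71.6% of the genes tested after control siRNA, was above 33.3% of them after Hnrnpk siRNA. Jun moved the other way, from above 17.7% to above 33.4%.

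**Figure D1:**
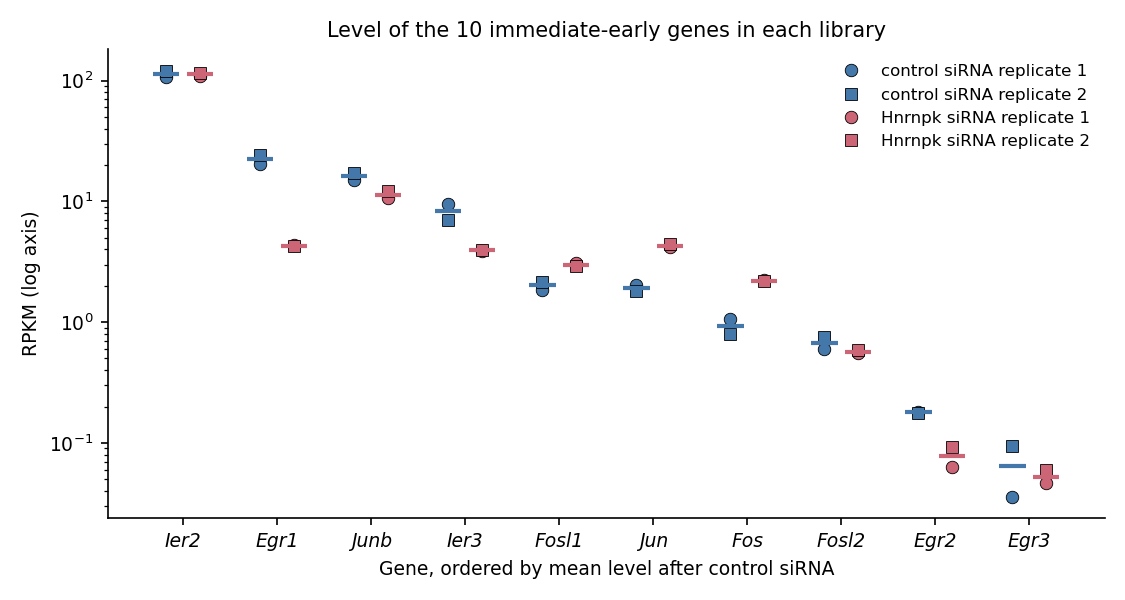
RPKM of each of the 10 genes (log axis) in the control siRNA libraries (blue) and the Hnrnpk siRNA libraries (red), with circles for replicate 1, squares for replicate 2 and short lines for group means. Egr1 went from 22.4 to 4.28 RPKM and met Jun, which went from 1.92 to 4.31 RPKM, while Ier2 stayed the most abundant at 114 and 113 RPKM.

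Among the EGR genes, Egr1 (ENSMUSG00000038418, chromosome 18, 34859823 to 34864984, plus strand) stood at 20.5 and 24.2 RPKM after control siRNA, against 4.31 and 4.24 RPKM after Hnrnpk siRNA. Both Hnrnpk siRNA libraries lay far below both controls and almost on top of each other. The control mean was 5.22 times the Hnrnpk siRNA mean, and the log2 change was -2.25 (SE 0.0870). Only 2 of the 12486 genes tested had a lower log2 change. Since RNA was taken from whole cultures, fewer cells with Egr1 mRNA and less of it per cell cannot be told apart, here and for every gene below.

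Egr2 and Egr3, known for roles in nerve and muscle, were barely detected. Egr2 (ENSMUSG00000037868, chromosome 10, 67535475 to 67542188, plus strand) was at 0.180 and 0.178 RPKM after control siRNA and at 0.0626 and 0.0927 RPKM after Hnrnpk siRNA, so both Hnrnpk siRNA libraries were lower. These levels would stand for about 76, 74, 24 and 34 reads or read pairs. That assumes that the RPKM values used the annotated exonic length and that each step between low values is a single read or read pair. Egr3 (ENSMUSG00000033730, chromosome 14, 70077203 to 70082614, plus strand) was at 0.0359 and 0.0937 RPKM after control siRNA and at 0.0461 and 0.0591 RPKM after Hnrnpk siRNA, or about 20, 50, 22 and 28 such units. Its Hnrnpk siRNA libraries lay between the controls, and no difference was detectable at this depth. With no minimum level, the log2 change was -0.23 for Egr2, which would then count as lower, and -0.030 for Egr3, which would not count.

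Fos (ENSMUSG00000021250, chromosome 12, 85473890 to 85477273, plus strand), the founding FOS gene, went the opposite way to Egr1. It stood at 1.06 and 0.798 RPKM after control siRNA and at 2.22 and 2.19 RPKM after Hnrnpk siRNA, both Hnrnpk siRNA libraries being above both controls. The ratio of means was 2.37 and the log2 change 0.93 (SE 0.108). Within each library, Fos was 0.0518 and 0.0330 of the Egr1 level after control siRNA, and 0.516 and 0.515 of it after Hnrnpk siRNA. That ratio does not depend on how libraries are scaled to each other, and its mean was 12.2 times higher after Hnrnpk siRNA.

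Fosl1 (ENSMUSG00000024912, chromosome 19, 5447547 to 5455946, plus strand) encodes FRA1, a FOS protein without the strong activation domain of FOS. It had 1.86 and 2.16 RPKM after control siRNA and 3.06 and 2.92 RPKM after Hnrnpk siRNA, again without overlap (log2 change 0.48, SE 0.0939). Of its 2033 exonic bases in GENCODE M21, 1163 overlap exons of Ccdc85b on the opposite strand, a gene not analysed here. Whether counting used strand is not stated in the labels, so reads of the 2 genes may not have been separated. Fosl2 (ENSMUSG00000029135, chromosome 5, 32135801 to 32157842, plus strand), which encodes FRA2, had 0.595 and 0.749 RPKM after control siRNA and 0.551 and 0.588 RPKM after Hnrnpk siRNA. The Hnrnpk siRNA libraries were the lower ones by a margin smaller than the gap between the controls (log2 change -0.13, SE 0.105).

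Jun (ENSMUSG00000052684, chromosome 4, 95049034 to 95052222, minus strand), the strongest activator of the JUN proteins, stood at 2.01 and 1.83 RPKM after control siRNA and at 4.17 and 4.44 RPKM after Hnrnpk siRNA. All Hnrnpk siRNA values were above the controls, with a ratio of means of 2.24 and a log2 change of 0.99 (SE 0.0882). Its single exon shares 232 bases with the antisense transcript Junos, not analysed here. Junb (ENSMUSG00000052837, chromosome 8, 84974484 to 84978718, minus strand), which can antagonise JUN, had 15.03 and 17.2 RPKM after control siRNA and 10.6 and 12.1 RPKM after Hnrnpk siRNA. Both Hnrnpk siRNA libraries were lower (log2 change -0.49, SE 0.0899), and with each library's trend on GC content removed the change was -0.27. Junb exons overlap 173 bases of Prdx2, on the other strand, which was more abundant and also lower after Hnrnpk siRNA, at 140.3 and 114 RPKM on average. The share of Prdx2 reads in the Junb values was not tested. Between Jun and Junb, the level of Jun relative to Junb was 0.134 and 0.107 after control siRNA and 0.394 and 0.366 after Hnrnpk siRNA.

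Ier2 (ENSMUSG00000053560, chromosome 8, 84661331 to 84662852, minus strand) had 108 and 121 RPKM after control siRNA and 109 and 116 RPKM after Hnrnpk siRNA. The groups overlapped, with a log2 change of -0.022 (SE 0.0738) whose sign changed between processing alternatives. The most abundant of the 10 genes therefore differed by less than the spread between replicates, while Egr1, the next most abundant after control siRNA, differed by more. Ier3 (ENSMUSG00000003541, chromosome 17, 35821684 to 35822923, plus strand) had 9.58 and 7.01 RPKM after control siRNA and 3.88 and 3.99 RPKM after Hnrnpk siRNA. The controls lay apart from each other, yet both were above both Hnrnpk siRNA libraries (ratio of means 0.475, log2 change -0.97, SE 0.123).

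Counted over the 8 genes that passed the minimum, the groups did not overlap in 7, of which 3 were higher and 4 lower after Hnrnpk siRNA. Over all 12486 genes tested the groups did not overlap in 84.7%, 41.2% higher and 43.5% lower. By the limma threshold used for all genes, a Benjamini-Hochberg adjusted p under 0.05, 3 of the 8 would count as higher (Fos, Fosl1 and Jun) and 3 as lower (Egr1, Junb and Ier3), against 32.2% and 35.0% of all genes tested, or 67.2% in both directions. Nothing is read from these counts, since the genes were proposed with this contrast known. The median log2 change of the 8 was -0.075, against -0.015 over all genes tested, and it lay in the middle of changes from -2.25 to 0.99. It turned to 0.015 without control siRNA replicate 2 and to 0.049 with GC trends removed, and it was -0.17 without control siRNA replicate 1.

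**Figure D2:**
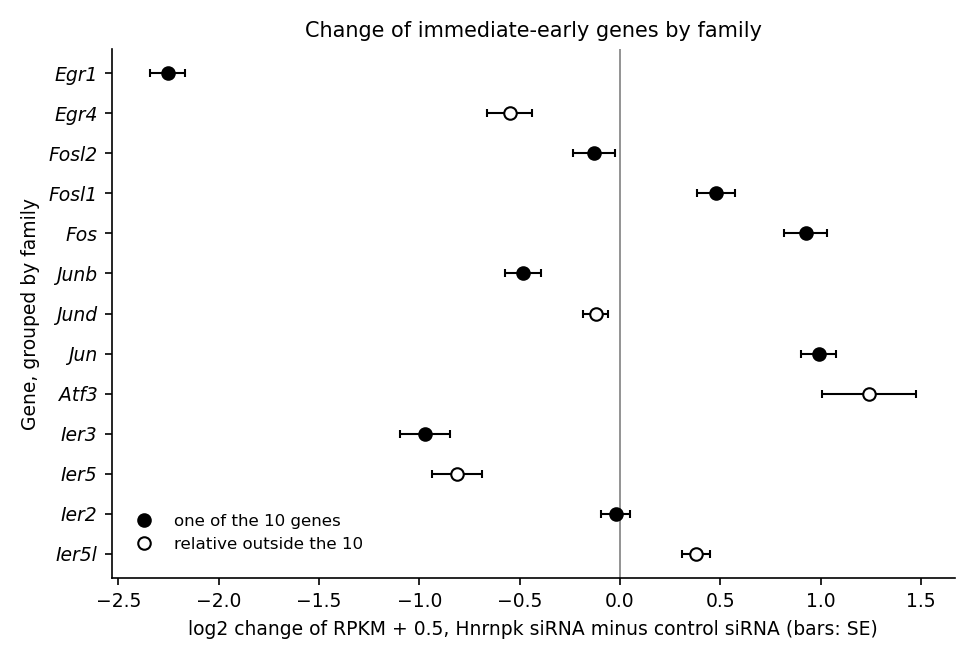
Log2 change (Hnrnpk siRNA minus control siRNA, bars are SE) of the 8 genes that passed the minimum (filled) and of 5 relatives outside the 10 (open), grouped by family. Egr1 lies lowest at -2.25, and the FOS, JUN and IER genes, relatives included and Atf3 aside, lie on both sides of 0, from -0.13 to 0.93, from -0.49 to 0.99 and from -0.97 to 0.38.

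Primitive endoderm and trophectoderm markers stood higher in the same libraries. Beside each marker count here stand the shares over all genes tested, 32.2% called higher and 35.0% lower. Of 6 primitive endoderm markers, 5 were called higher and none lower, with summed levels of 5.17 to 5.20 RPKM in the control group and 30.3 to 30.9 RPKM after Hnrnpk siRNA. Gata6 led these sums, and 2 of the 6 were under 1 RPKM in every library. Of 6 trophectoderm markers, 4 were called higher and none lower, with sums of 29.05 to 34.7 and 63.5 to 67.9 RPKM. Those sums were led by Krt18, and 2 of the 6 were under 1 RPKM in every library. The 7 fibroblast markers summed to 8.02 to 9.46 and 4.08 to 4.32 RPKM, with 5 of the 7 under 1 RPKM in every library. Of the 7, 2 were called lower and none higher. The sums for 3 neural markers were 99.9 to 112 and 82.8 to 93.2 RPKM, led by Tubb3, with 2 called lower and none higher. Of 3 blood markers, 2 were called higher and none lower. Cd68 led their sums of 10.1 to 11.2 RPKM after control siRNA and of 49.1 RPKM in both Hnrnpk siRNA libraries. No marker of these lists was at 0 in a library. The part of these markers' cells in the levels of the 10 genes was not tested.

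Summed over a family, the 10 genes and their nearest relatives gave a picture of composition. The EGR sum, over Egr1, Egr2, Egr3 and Egr4, was 21.5 and 25.5 RPKM after control siRNA and 4.84 and 4.87 RPKM after Hnrnpk siRNA. Egr1 made up 95.2% ± 0.347 of it in the control group and 88.2% ± 1.32 after Hnrnpk siRNA (SD, n = 2 per group). Egr4, the remaining relative and no member of the 10, fell from 0.887 ± 0.176 to 0.444 ± 0.0358 RPKM (SD, n = 2 per group; log2 change -0.55, limma adjusted p = 0.00185). With GC trends removed its change was -0.23 and was not called (adjusted p = 0.0937, the highest of the alternatives, the lowest being 1.99e-05). With 0.1 RPKM added before the logarithm in place of 0.5, the Egr4 change was -0.85.

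The FOS sum, over Fos, Fosb, Fosl1 and Fosl2, went from 3.76 and 3.94 RPKM to 6.25 and 6.10 RPKM. Fosl1 was its largest part in every library, at 49.5% and 54.8% after control siRNA and 48.9% and 47.9% after Hnrnpk siRNA. Because Fosl1 values may hold reads of Ccdc85b, as given above, the sum and every share of it carry that limit. The Fos share went from 28.3% and 20.2% to 35.6% and 35.8%, and the Fosl2 share from 15.8% and 19.0% to 8.82% and 9.64%, neither overlapping between groups. Fosb, which encodes another FOS protein, was at 0.242 and 0.235 RPKM after control siRNA and at 0.417 and 0.403 RPKM after Hnrnpk siRNA, too low to be tested.

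The JUN sum, over Jun, Junb and Jund, was 77.7 and 82.2 RPKM after control siRNA and 71.01 and 74.1 RPKM after Hnrnpk siRNA. Jund, a JUN gene with steadier expression, made up 76.9% to 79.2% of it in every library, and its own level of 62.0 ± 1.81 and 56.9 ± 0.898 RPKM (SD, n = 2 per group) gave no call (log2 change -0.12, limma adjusted p = 0.104). That value became 0.18, called at an adjusted p of 0.0229, with GC trends removed, and -0.18, called at 0.0210, under quantile normalization. The adjusted p of Jund lay between 0.0210 and 0.315 in the alternatives run. Its exons overlap 877 bases of the antisense gene Gm11175, whose mean was 0.0545 RPKM in the control group and 0.0849 RPKM after Hnrnpk siRNA. Jun took 2.59% and 2.22% of the JUN sum after control siRNA and 5.87% and 5.99% after Hnrnpk siRNA. By summed RPKM, JUN mRNA exceeded FOS mRNA in all 4 libraries.

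**Figure D3:**
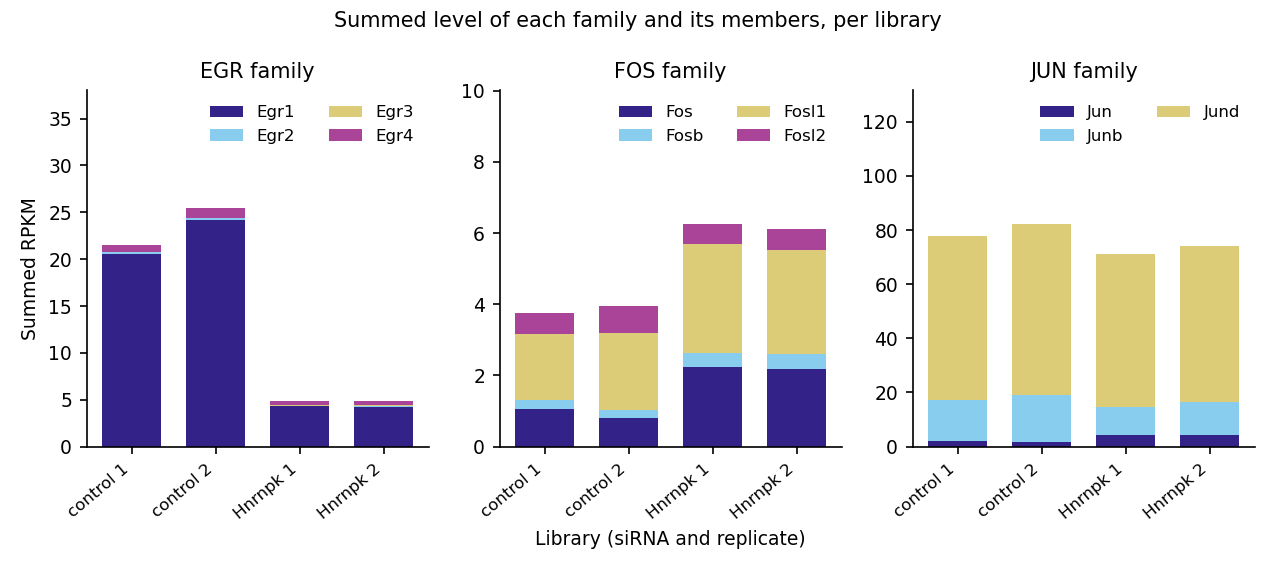
Summed RPKM of the EGR, FOS and JUN families in each library, stacked by gene, with a separate vertical scale for each family. The EGR bars are mostly Egr1 and drop from 21.5 and 25.5 to 4.84 and 4.87 RPKM, the FOS bars go from 3.76 and 3.94 to 6.25 and 6.10 RPKM, and most of each JUN bar is Jund.

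In the IER family, Ier2 made up 80.8% to 84.1% of the sum of Ier2, Ier3, Ier5 and Ier5l in each library, and that sum was 139 ± 7.82 and 135 ± 5.21 RPKM (SD, n = 2 per group). Ier5 fell from 2.54 ± 0.542 to 1.22 ± 0.122 RPKM (SD, n = 2 per group; log2 change -0.81, limma adjusted p = 0.000317). Ier5l rose from 13.4 ± 0.581 to 17.6 ± 0.647 RPKM (SD, n = 2 per group; log2 change 0.38, limma adjusted p = 0.000924), and with GC trends removed its change was 0.62. Atf3, a stress-induced AP-1 partner, rose from 1.59 and 3.56 RPKM to 6.12 and 6.65 RPKM (log2 change 1.24, SE 0.236, limma adjusted p = 0.00116). Its controls differed by more than 2-fold, and without control siRNA replicate 1 the change was 0.76.

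Other immediate-early genes, from a list of 26 that leaves out the 10, also went both ways. Of 23 tested, 15 rose, 6 fell and 2 were not called. Over all genes tested 32.2% were called higher and 35.0% lower, shares that also stand beside the counts of each list below. The lists, like the 10 genes, were chosen with earlier results of these data known. Their counts, medians and p-values are therefore given as a description. The median log2 change of the 23 was 0.38, against -0.015 over all genes tested. Gadd45b, a stress sensor, rose from 9.44 ± 0.858 to 43.1 ± 2.21 RPKM (SD, n = 2 per group; log2 change 2.14, limma adjusted p = 6.96e-08). Ctgf and Cyr61, matricellular proteins known as targets of YAP and of SRF with its MRTF cofactors, rose from 7.22 ± 0.985 to 32.7 ± 1.31 RPKM and from 19.7 ± 0.604 to 53.9 ± 0.390 RPKM (SD, n = 2 per group), with log2 changes of 2.11 and 1.43. Nr4a1, an orphan nuclear receptor, was at 19.2 RPKM in both control libraries and at 35.1 RPKM in both Hnrnpk siRNA libraries (log2 change 0.85, limma adjusted p = 2.66e-06).

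The list of AP-1 and EGR partners had 10 genes tested, of which 4 rose, 3 fell and 3 were not called (median log2 change 0.065). Batf3 and Batf, bZIP proteins that pair with JUN, fell from 4.19 ± 0.0461 to 1.64 ± 0.0190 RPKM and from 1.73 ± 0.0362 to 0.952 ± 0.157 RPKM (SD, n = 2 per group; limma adjusted p = 3.15e-06 and 0.000492). Atf2, another partner of JUN, rose from 13.4 ± 0.323 to 17.3 ± 0.486 RPKM, and Mafg, a small MAF protein, from 18.1 ± 0.372 to 22.9 ± 0.791 RPKM (SD, n = 2 per group), with log2 changes of 0.36 and 0.34.

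Factors that regulate immediate-early promoters had 5 of 13 tested called higher, 5 lower and 3 not called, with a median log2 change of 0.045. That is near the 32.2% higher and 35.0% lower over all genes tested, and nothing particular to these factors is read from it. Srf, which encodes the factor that binds the CArG box, fell from 27.6 and 27.5 RPKM to 15.7 and 16.7 RPKM (log2 change -0.75, SE 0.0653, limma adjusted p = 8.63e-06). With GC trends removed the Srf change was -0.50 and remained called. Elk3, an ETS partner of SRF, fell from 5.67 ± 0.311 to 3.41 ± 0.0865 RPKM (SD, n = 2 per group; log2 change -0.66). Atf1, a CREB family factor, and Crtc2, a CREB coactivator, rose, with log2 changes of 0.51 and 0.31. Both groups of factors were split in direction. Crem rose and Creb1 fell, with log2 changes of 0.42 and -0.33. Among the other ETS and MRTF partners of SRF, Elk1 and Mkl2 rose (0.32 and 0.32), while Elk4 and Mkl1 fell (-0.30 and -0.33).

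Along the MAP kinase route, 12 genes were tested and 5 were called higher and 5 lower (median log2 change -0.051), beside 67.2% of all genes tested called in either direction. Mapk3, which encodes ERK1, fell from 71.6 ± 2.99 to 44.1 ± 0.344 RPKM (SD, n = 2 per group; log2 change -0.69, limma adjusted p = 1.04e-05). Araf, a RAF kinase at the top of the ERK route, rose from 10.1 and 9.91 RPKM to 17.6 and 18.3 RPKM (log2 change 0.81, limma adjusted p = 6.23e-06). Map2k4 and Map2k7, the kinases that activate JNK, which phosphorylates JUN, rose with log2 changes of 0.31 and 0.27. Mapk8 and Mapk9, which encode JNK kinases, went the other way and were called lower, with log2 changes of -0.29 and -0.22. These are transcript levels, and the activity of the kinases was not measured. Without Hnrnpk siRNA replicate 2 the counts were 3 higher and 3 lower, and 3 were called lower without Hnrnpk siRNA replicate 1, with no filter and with length trends removed.

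Genes induced by ERK as feedback on it had 7 of 12 tested called lower, 4 higher and 1 not called, with a median log2 change of -0.31. Spred2 fell from 42.6 ± 0.128 to 28.5 ± 1.74 RPKM, Spry4 from 40.6 ± 3.05 to 27.1 ± 0.837 RPKM and Spred1 from 16.1 ± 1.26 to 10.5 ± 0.702 RPKM (SD, n = 2 per group), with log2 changes of -0.57, -0.57 and -0.60. Their proteins restrain signalling from receptors to ERK. Phlda1 went the other way, from 5.15 ± 0.427 to 33.8 ± 0.988 RPKM (SD, n = 2 per group, log2 change 2.60, limma adjusted p = 2.34e-08). Dusp4, Spry2 and Dusp6 were also called higher, with log2 changes of 0.54, 0.31 and 0.23.

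Of 8 genes for proteins that bind AU-rich mRNAs, 3 rose, 2 fell and 3 were not called (median log2 change 0.047). Zfp36l1 and Zfp36, which speed the decay of such mRNAs, rose with log2 changes of 0.56 and 0.24 (limma adjusted p = 0.000149 and 0.0132). Leaving out Hnrnpk siRNA replicate 1 ended the call of Zfp36 (adjusted p = 0.141, the highest of the alternatives, the lowest being 0.00382), and 1 gene of the list was then called higher. Hnrnpd, which encodes AUF1, and Tia1 fell, with log2 changes of -0.31 and -0.37.

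Heat-shock genes, which like immediate-early genes respond to the handling of cells, had 5 of 6 tested called higher and none lower, with a median log2 change of 0.54. Hspb1 rose from 127 ± 4.32 to 373 ± 8.59 RPKM and Hspa1a from 1.02 ± 0.0345 to 2.28 ± 0.110 RPKM (SD, n = 2 per group), with log2 changes of 1.55 and 0.87. Hspa1b and Hsph1 rose with log2 changes of 0.54 and 0.53. Hspa1a and Hspa1b are near-identical copies, so the values of each are uncertain. The part of cell handling in the levels of the 10 genes was not tested.

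**Figure D4:**
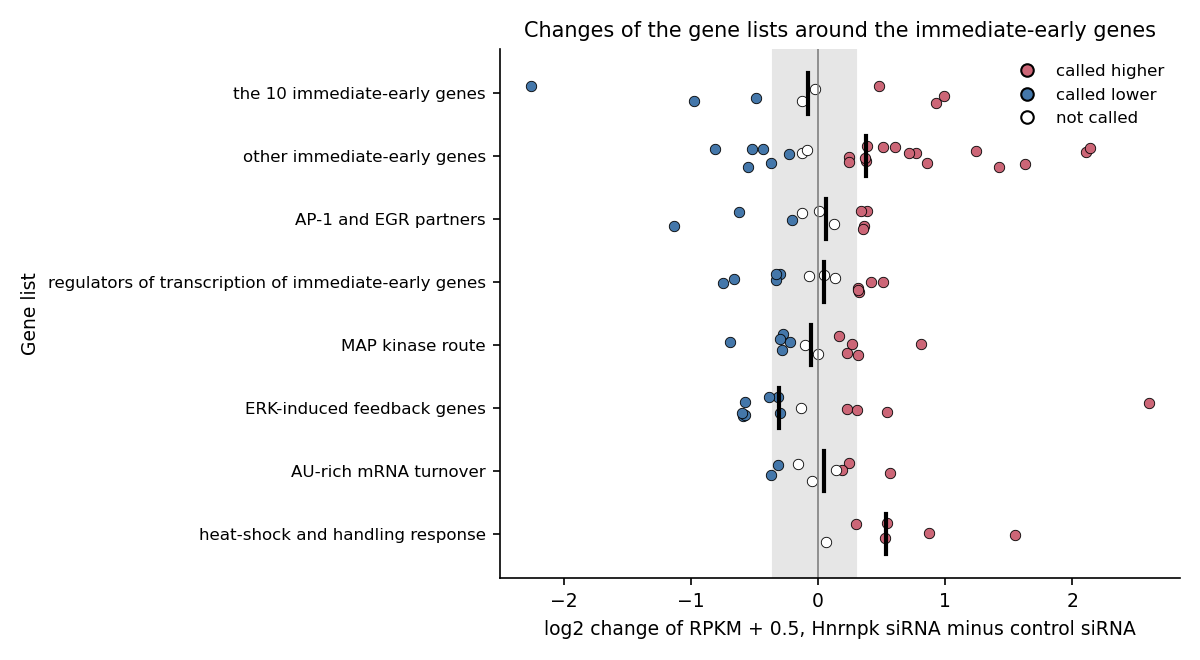
Log2 change (Hnrnpk siRNA minus control siRNA) of each tested gene, by list, coloured by limma's call at an adjusted p under 0.05, with black bars for list medians and grey for the middle 50% of all genes tested. The 10 immediate-early genes spread to both sides of a median of -0.075, the other immediate-early genes have a median of 0.38 and the ERK-induced feedback genes one of -0.31.

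In the median, the 8 genes differed more between the control libraries than between the Hnrnpk siRNA libraries, as did all genes tested. On the log2 scale, the difference between the control libraries was larger than the median of 0.0906 over all genes tested in 8 of 8, with a median of 0.188. Between the Hnrnpk siRNA libraries it was larger than the median of 0.0693 over all genes in 3 of 8, with a median of 0.0531. For Junb the differences were alike, at -0.185 between the controls and -0.190 after Hnrnpk siRNA (replicate 1 minus replicate 2). The control libraries did not differ in one direction. Control replicate 1 was the higher for Fos, Jun and Ier3 and the lower for Egr1, Fosl1, Fosl2, Junb and Ier2. Over all genes tested it was the higher for 7154 and the lower for 5330. Among the 8 genes, the largest difference between the controls was 0.42, for Ier3.

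Over the 4 libraries, the genes outside the 10 whose profile lay nearest to that of Egr1 were Slfn9, Mt3 and C1ql1, at Euclidean distances of 0.258, 0.270 and 0.274 on the centred log2 scale. Slfn9 went from 4.90 ± 0.115 to 0.594 ± 0.133 RPKM (SD, n = 2 per group), Mt3 from 47.0 and 44.5 to 9.82 and 10.5 RPKM, and C1ql1 from 7.83 and 7.43 to 1.11 and 1.38 RPKM. With 4 libraries in 2 groups, such nearness says little more than a similar size of change.

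Processing left the larger differences in place. Across 14 alternatives the log2 change of Egr1 lay between -2.37 and -2.14, that of Ier3 between -1.18 and -0.76 and that of Junb between -0.58 and -0.27. Jun lay between 0.86 and 1.13, Fos between 0.73 and 1.17 and Fosl1 between 0.39 and 0.61. Ier2 ranged from -0.12 to 0.17 and, over 13 alternatives, Fosl2 ranged from -0.22 to -0.034.

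**Figure D5:**
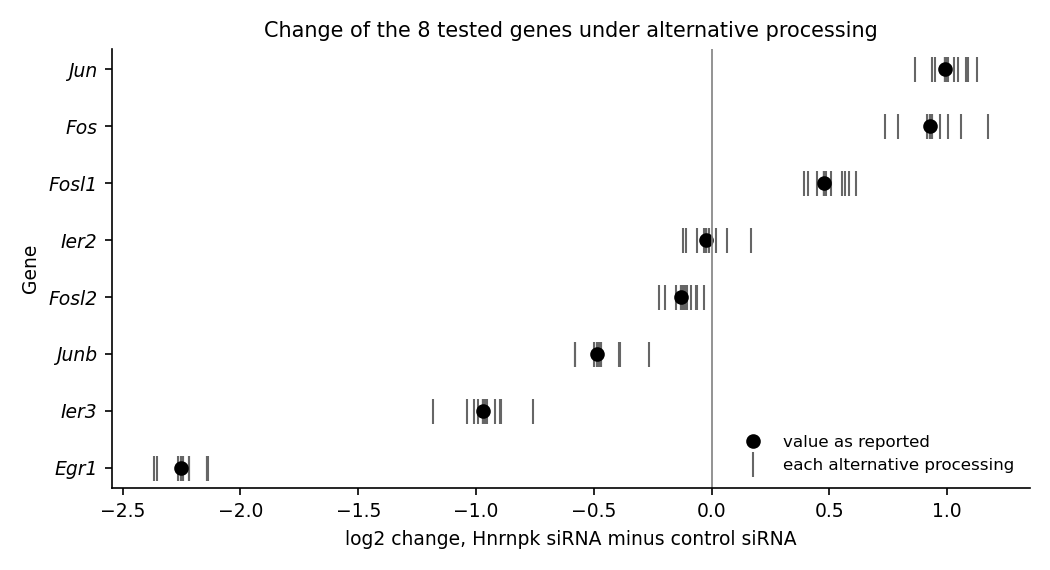
Log2 change (Hnrnpk siRNA minus control siRNA) of the 8 genes that passed the minimum, as reported (dots) and under each alternative processing (ticks). Egr1 stays between -2.37 and -2.14 and Jun between 0.86 and 1.13, while the ticks of Ier2 fall on both sides of 0.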

How the data were processed

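The table as deposited gives RPKM, 1 value for each gene in each of the 4 libraries. The submitters' processing notes name BWA, SAMtools and build mm9; the sources used here do not give the counting tool, the annotation or how overlapping genes were treated. Positions and gene features come from GENCODE M21 on GRCm38, matched by Ensembl identifier for 20551 of 22138 genes, and no coordinate was converted between builds.

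RPKM values are not counts. For the 12486 genes whose mean reached 0.5 RPKM, log2(RPKM + 0.5) was compared between groups with limma 3.58.1 (R 4.3.3, mean-variance trend, two-sided), and p-values were adjusted by the Benjamini-Hochberg method over all of them. An adjusted p under 0.05 made a call. The smallest p that an exact permutation test can give for 2 against 2 libraries is 0.333, so calls rest on the variance pooled across genes. The fit was tested on simulated data in which 200 of 12486 genes were changed, and 14 of its 206 calls were false. In the data themselves 67.2% of genes were called, so the simulation does not give the error rate of these calls. Whole reads were not recovered: steps between low values gave relative depth. Absolute depth is not known, and the read numbers given for Egr2 and Egr3 hold only if each step is a single read or read pair. Transcripts were compared by BLAST 2.17.0 (95% identity over 100 bases).

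The 10 genes and the lists were chosen with earlier results of these data known. Named genes were the 10; Hnrnpk, Egr4, Fosb, Jund, Atf3, Ier5, Ier5l and Srf; up to 4 called genes of each list, lowest p first; and the 3 genes nearest to Egr1. Besides these, Mapk8, Mapk9, Dusp4, Dusp6, Spry2, Crem, Creb1, Elk1, Elk4, Mkl1 and Mkl2 were named after their values were seen. List names not matched (Rps6ka1 to Rps6ka5 and Sox1), and Atf7, listed under 2 identifiers, were not analysed here. The 14 alternatives changed the added value, filter, scaling, GC or length trend, variance trend, replicate block or libraries.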

Additional observations from a re-analysis of the deposited data

How the results depend on the processing

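Egr1, Fos, Fosl1, Jun, Junb and Ier3 kept their direction under all 14 alternatives. With GC trends removed, the median log2 change of the 8 genes was 0.049, Ier2 was 0.17 and Jund was 0.18. Leaving out 1 library at a time, that median lay between -0.17 and 0.015, and Ier2 lay between -0.11 and 0.063, being above 0 without control siRNA replicate 2 (0.063) and without Hnrnpk siRNA replicate 1 (0.017). The cause of these shifts was not tested. Fosl2 stayed below 0 in its 13 alternatives and lay furthest from it without control siRNA replicate 1 (-0.22). For the MAP kinase route, 3 genes were called lower with no filter and with length trends removed. Without 1 library at a time, the route had 3 to 5 genes called higher and 3 to 5 lower, and the AU-rich list had 1 to 4 called higher. Over all genes, 3155 to 4760 were called higher and 3552 to 4900 lower among the alternatives.

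Same-numbered libraries showed little shared deviation: their deviations from group means had a correlation of 0.027 over 12486 genes, which are not independent. That value cannot show whether same-numbered libraries were made together. With the replicate block, 4162 genes were called higher and 4460 lower, against 4025 and 4371 without it. Egr2 and Egr3 lie below the minimum used. With no filter, Egr2 would count as lower (log2 change -0.23) and Egr3 would not (-0.030), and their low depth limits both values.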

Other observations

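Some other immediate-early genes differed strongly between the control libraries. Of 23 tested, 4 (17.4%) differed by more than 0.3 on the log2 scale between control replicates 1 and 2, against 6.21% of all genes tested. They were Atf3 and Ier5, whose values are given above, and Btg2 and Myc, named after their values were seen. Btg2, an antiproliferative gene and known p53 target, was at 20.2 and 13.9 RPKM after control siRNA and at 53.03 and 52.4 RPKM after Hnrnpk siRNA. Myc, a growth-promoting transcription factor, was at 18.3 and 34.3 RPKM after control siRNA and at 39.2 and 37.8 RPKM after Hnrnpk siRNA. Control replicate 1 was the higher for Btg2 and Ier5 and the lower for Atf3 and Myc.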
